A study of Mus musculus with 9 samples.

Results

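ATAC-Seq peak files of 2 reprogramming libraries were compared: D3, unsorted cells collected 3 days after induction, and D6T-, cells negative for the surface marker Thy-1 sorted 6 days after induction. Overlapping peaks were merged within each library on chromosomes 1 to 19, which left 104965 regions in D3 and 129532 in D6T-, out of 606963 regions in the 9 libraries of the series. Regions of the 2 libraries that shared at least 1 bp formed 71588 common regions. The other D6T- regions, 56298, were called gained, and the other D3 regions, 29418, were called lost. All cells came from mouse embryonic fibroblasts (MEFs) infected with pMXs retroviruses that carry Sox2, Klf4, Oct4 and c-Myc (OSKM) in the presence of polybrene, and they were then kept in feeder-free medium with LIF, ascorbic acid, bFGF and a GSK3 inhibitor. The MEFs carried a GFP reporter at Oct4. D3 was a bulk population, taken without sorting, whereas D6T- held only the sorted fraction without the fibroblast marker. Time and sort therefore cannot be told apart in this comparison. Each condition had 1 library with no replicate, so no p-value is given and a 2-fold difference served as the call. Intervals are 95% intervals that cover counting error only.

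The 4 factors act on a chromatin landscape inherited from fibroblasts, where AP-1 (dimers of Jun and Fos proteins), TEAD and RUNX factors occupy most active enhancers. Oct4 and Sox2 bind a composite element and can reach sites within closed chromatin. The early phase of reprogramming involves silencing of mesenchymal genes and a mesenchymal-to-epithelial transition, and loss of Thy-1 from the surface marks cells that leave the fibroblast state. ATAC-Seq reads out open chromatin from the cuts of the Tn5 transposase, and the height of a region is given here as CPM, the highest pileup of extended tags over the region divided by the tags of the library in units of 1e+06.

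D3 held 30233396 tags and D6T- 21390800, within the range of the series (13213117 to 31714845). The lowest height called was 10 tags in D3 (0.331 CPM) and 8 tags in D6T- (0.374 CPM). An opening below these heights was not detectable. Although D6T- was the shallower library, its regions covered 64001172 bp against 46403921 bp in D3, and it had the largest number of regions among the 9 libraries. Thy1, which encodes the marker of the sort, had a promoter region of 17 tags in D3 (0.562 CPM) and none in D6T-, and both of its regions, promoter of 3 kb included, were lost. The Thy1 promoter had 0.410 CPM at D0, and it was called again in D12S+ (0.625 CPM), D16S+ (0.567 CPM) and iPSCs (0.489 CPM).

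The accessible regions that set the 2 libraries apart differed in height. Gained regions made up 43.5% of the D6T- regions and had a median height of 14 tags (0.654 CPM), with 5% of them above 1.22 CPM. Lost regions made up 28.0% of the D3 regions and had a median of 13 tags (0.430 CPM), with 5% of them above 0.662 CPM. Of the lost regions, 35.2% (34.6 to 35.7) lay within 2 tags of the lowest called height, against 16.3% (16.0 to 16.6) of the gained. A height of at least 1 CPM was reached by 6414 gained regions (11.4%) and by 211 lost regions (0.717%). Lost regions were thus mostly weak regions near the floor of D3, whereas many gained regions lay well above the floor of D6T-. The 2 classes are measured in different libraries, however, and their median tags were close (14 and 13). Common regions were also 1.69-fold higher in D6T- at the median. The part of this general shift in the difference in CPM was not tested. Median widths were 253 bp for lost, 291 bp for gained, and 387 bp (D3) and 493 bp (D6T-) for common regions.

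The excess of gained over lost regions depended on how many regions were taken. With all regions, there were 1.91 gained regions for each lost region. When the 104965 regions of highest pileup were taken from both libraries, 37505 regions were gained and 34665 were lost, a ratio of 1.08. With the 20000 highest in each, 4416 were gained and 4239 lost, a ratio of 1.04, and 15557 were common. With regions of a −log10 q-value of at least 5, the ratio was 4.00, since this cutoff left 9969 lost regions. Gained regions outnumbered lost ones in each of these settings, but by amounts that differed. Taking equal numbers from both libraries by itself brings the counts of gained and lost regions close together. The ratios of 1.08 and 1.04 therefore do not show whether the exchange of regions was balanced.

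**Figure D1:**
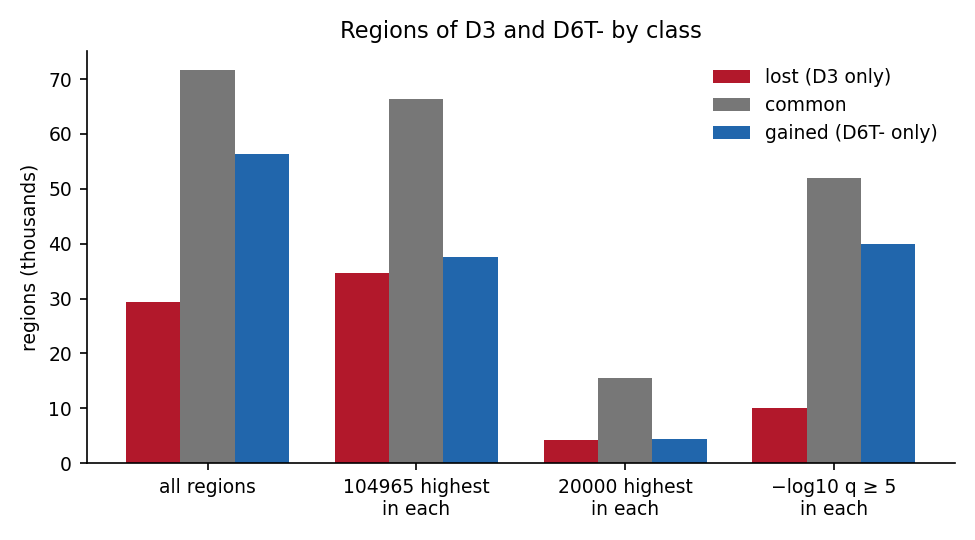
Number of regions (y axis) that were lost, common or gained between D3 and D6T-, for all regions, for equal numbers of regions of highest pileup and for regions of high significance (x axis). The excess of gained over lost regions shrinks from 1.91 to 1.08 and 1.04 gained regions per lost region once both libraries contribute equal numbers. Equal numbers by themselves bring the 2 counts close together.

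The tallest gained regions were all distal. The window around the highest point of each, 100 bp to each side on the plus strand of mm9, is shown with any match to the AP-1 motif TGANTCA in capitals, since this motif set the gained regions apart from the lost ones (described further on). The first lies in an intron of Ptprn2, the second between genes near Nox4, the third between genes near Pdha2, the fourth in an intron of Zfc3h1 and the fifth in an intron of Trappc9.
Ptprn2 intron (chr12:117808108-117808308, mm9, plus strand): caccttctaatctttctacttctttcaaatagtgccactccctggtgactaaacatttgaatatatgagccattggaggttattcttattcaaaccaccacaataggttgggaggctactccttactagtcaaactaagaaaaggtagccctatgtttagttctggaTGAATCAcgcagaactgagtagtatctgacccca
near Nox4 (chr7:94335379-94335579, mm9, plus strand): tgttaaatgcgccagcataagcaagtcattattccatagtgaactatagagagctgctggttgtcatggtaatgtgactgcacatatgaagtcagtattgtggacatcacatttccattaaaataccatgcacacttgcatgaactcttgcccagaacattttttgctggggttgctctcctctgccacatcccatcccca
near Pdha2 (chr3:140775529-140775729, mm9, plus strand): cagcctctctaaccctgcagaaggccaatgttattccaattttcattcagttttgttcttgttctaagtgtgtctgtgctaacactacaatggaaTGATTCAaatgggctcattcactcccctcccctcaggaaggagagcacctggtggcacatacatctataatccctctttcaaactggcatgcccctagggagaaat
Zfc3h1 intron (chr10:114833132-114833332, mm9, plus strand): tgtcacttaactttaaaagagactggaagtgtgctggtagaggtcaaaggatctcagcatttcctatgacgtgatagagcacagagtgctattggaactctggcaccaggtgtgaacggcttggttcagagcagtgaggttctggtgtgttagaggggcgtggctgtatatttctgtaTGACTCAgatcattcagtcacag
Trappc9 intron (chr15:72670670-72670870, mm9, plus strand): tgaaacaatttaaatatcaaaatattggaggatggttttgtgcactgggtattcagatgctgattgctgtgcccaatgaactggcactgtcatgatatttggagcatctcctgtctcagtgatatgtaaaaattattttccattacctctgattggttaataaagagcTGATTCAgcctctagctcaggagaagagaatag
Of these 5 windows, 4 hold an AP-1 match. The Ptprn2 region (chr12:117807994-117808461, 83.999 kb from the TSS of Ptprn2, which encodes a receptor-type phosphatase of secretory granules) had 65 tags in D6T-, 3.04 CPM. It was called in D9T- (28 tags), D12S+ (21 tags) and both day 6 siRNA libraries (28 and 32 tags), but in neither D0, D16S+ nor iPSCs. The region near Nox4 (chr7:94335123-94335710, 59.1 kb from the TSS of this NADPH oxidase gene) had 64 tags (2.99 CPM) with calls in the same libraries. The region near Pdha2 (chr3:140775217-140776029) had 62 tags (2.90 CPM), the Zfc3h1 region (chr10:114833024-114833464) 61 tags (2.85 CPM) and the Trappc9 region (chr15:72670427-72670985) 58 tags (2.71 CPM). All 5 recurred in D9T-, D6 siNT and D6 siH3.3, and none was called in D0, D16S+ or iPSCs.

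The tallest lost regions were of another kind. They were narrow, between 364 and 385 bp wide, and tall for a set that otherwise sat near the floor. The window of a region between genes near Gm8882 is shown because it holds repeated sequence, with matches to CATTCCATT on either strand in capitals.
near Gm8882 (chr6:132413683-132413883, mm9, plus strand): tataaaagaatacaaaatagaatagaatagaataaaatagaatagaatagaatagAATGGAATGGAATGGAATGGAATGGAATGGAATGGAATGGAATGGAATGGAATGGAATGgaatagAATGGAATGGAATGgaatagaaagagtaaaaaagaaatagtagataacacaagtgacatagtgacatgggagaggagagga
The region near Gm8882 (chr6:132413601-132413985) had 112 tags in D3 (3.70 CPM). The regions near 2810405K02Rik (chr4:154282629-154282992) and in Plxdc2 (chr2:16604549-16604922) had 140 tags (4.63 CPM) and 136 tags (4.50 CPM). None of these was called in D0, D6T-, D9T-, D12S+, D16S+ or iPSCs, whereas the Plxdc2 region had 14 tags in D6 siH3.3.

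Regions of this kind were a minority of the strong decreases. With a height of at least 2 CPM in D3, 121 regions were lost or at least 2-fold lower in D6T-. Of these, 27 were called in no other time-course library, and 16 of the 27 were 350 to 400 bp wide. At least 1 day 6 siRNA library held 14 of the 27 (13 in D6 siH3.3 and 7 in D6 siNT). A CATTCCATT or TCAGCCTCC match lay within 100 bp of the highest point in 16 of the 27, against 1 of the other 94. Over all common regions, CATTCCATT was found in 0.482% and TCAGCCTCC in 0.742%. Both motifs were chosen after the sequences of these regions were seen, and the part of repeated sequence in the height of the regions was not tested.

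Common regions were higher in D6T- throughout. Their median height was 0.728 CPM in D3 and 1.31 CPM in D6T-, and 91.7% of them had a higher value in D6T-. The median log2 ratio of D6T- over D3 was 0.76 (0.75 to 0.76), a 1.69-fold difference, with quartiles of 0.41 and 1.10 and an SD over regions of 0.56. At least 2-fold higher were 22752 regions (31.8%), and at least 2-fold lower were 248 (0.346%). Every common region reached the lowest called height in D6T- (0.374 CPM). Regions low in D3 could thus not be called 2-fold lower, and deeper falls were classed as lost. The floor therefore limits the share that could be called lower. With the ratios centred on their median, 3.51% were at least 2-fold above it and 3.64% at least 2-fold below it.

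The shift itself differed between the day 6 libraries. D6 siNT and D6 siH3.3 are libraries of day 6, also labelled as Thy-1-negative, from cells transfected with a non-targeting siRNA or an siRNA against H3.3. The sort of these cells is given by the labels alone and not by the study's account of the knockdown, so whether they match D6T- in sorting is uncertain. At the 28945 common regions called in both of them, the median log2 ratio over D3 was 0.91 for D6T-, but −0.46 for D6 siNT and −0.38 for D6 siH3.3. D6T- was 2.56-fold higher than D6 siNT at the same regions (median log2 ratio 1.36, SD over regions 0.53), whereas the siRNA libraries differed from each other by 0.08 (SD 0.40). These ratios share the D3 or the D6T- library. The direction of the median shift from day 3 to day 6 was therefore that of the particular day 6 library, and values below are read relative to the median of all common regions.

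**Figure D2:**
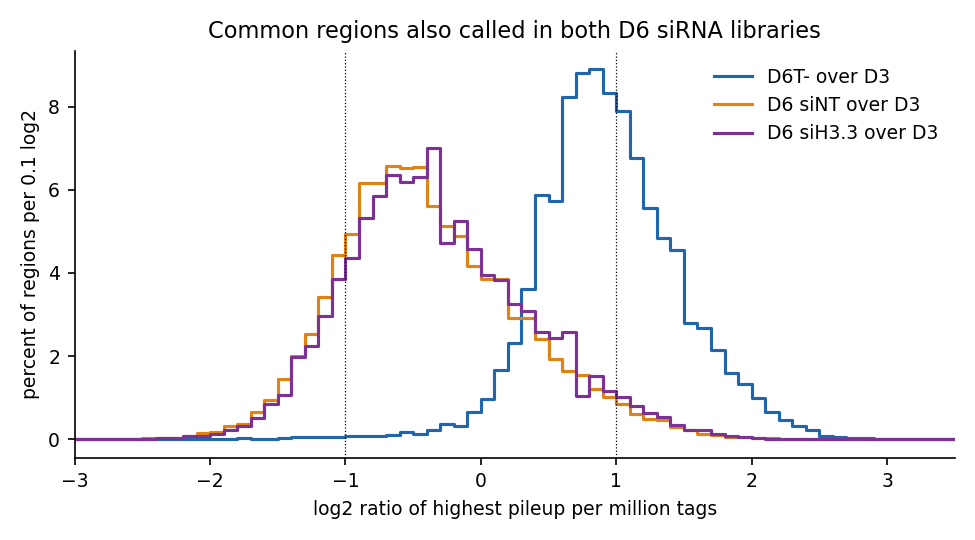
Distribution of the log2 ratio of highest pileup in CPM over D3 (x axis) for the 28945 common regions called in D6T-, D6 siNT and D6 siH3.3, in percent of regions per 0.1 log2 (y axis), with dotted lines at 2-fold. D6T- lies above D3 (median 0.91) and both siRNA libraries lie below it (medians −0.46 and −0.38).

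Around this median, distal regions were higher than promoters. Regions in the 3 kb upstream of a TSS had a median log2 ratio of 0.72 (0.71 to 0.72), those in genebodies 0.74 (0.74 to 0.75) and those between genes 0.80 (0.79 to 0.81). The share at least 2-fold higher rose from 25.1% of promoter regions to 36.0% of intergenic ones. The same order was seen for D6 siNT over D3 (−0.64 for promoters, −0.44 for genebodies and −0.23 between genes) and for D6 siH3.3 over D3 (−0.59, −0.37 and −0.14), with D3 shared by all 3 ratios. Base composition moved with the ratio as well. In 5 bins of the common regions by GC content around the highest point, the median fell from 0.91 in the bin of lowest GC to 0.66 in the bin of highest GC. Over 5 bins by summed CPM, the median was 0.37 in the lowest, 0.94 in the fourth and 0.84 in the highest. The sum holds both terms of the ratio, and the called floors restrict the ratios possible in the lowest bin. These bins therefore cannot show whether the ratio depended on height.

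The common regions of largest increase were again distal. The highest ratio among the 20585 common regions with at least 2 CPM in either library was at chr9:96545677-96546288, between genes 13.925 kb from the TSS of Rasa2, a RAS GTPase-activating protein gene, where 10 tags in D3 (0.331 CPM) stood against 60 in D6T- (2.80 CPM). Its log2 ratio was 3.08 (2.11 to 4.22). The region at chr6:145628012-145628514, between genes near Tuba3b, had 10 tags in D3 and 54 in D6T- (0.331 and 2.52 CPM, log2 ratio 2.93, 1.94 to 4.07). Both hold an AP-1 match near the highest point, in capitals in the windows shown for them.
near Rasa2 (chr9:96545861-96546061, mm9, plus strand): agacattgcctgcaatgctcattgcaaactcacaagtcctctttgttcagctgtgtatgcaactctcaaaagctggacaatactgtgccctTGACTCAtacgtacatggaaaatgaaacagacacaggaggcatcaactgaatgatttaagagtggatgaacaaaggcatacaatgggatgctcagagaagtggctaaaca
near Tuba3b (chr6:145628173-145628373, mm9, plus strand): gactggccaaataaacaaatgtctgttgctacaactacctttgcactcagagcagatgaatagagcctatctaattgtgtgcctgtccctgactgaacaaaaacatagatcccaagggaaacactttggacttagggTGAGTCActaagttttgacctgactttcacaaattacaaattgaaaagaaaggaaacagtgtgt
The other 3 lay in Gm12162 (15 and 85 tags, log2 ratio 3.00, 2.20 to 3.90), in the genebody of Mpped2 (10 and 55 tags, 2.96, 1.97 to 4.10) and in that of Wdr25 (10 and 52 tags, 2.88, 1.89 to 4.02), and none of these 3 has an AP-1 match in the window. None of the 5 was called in D0 or iPSCs, and all were called in both siRNA libraries at heights between 11 and 32 tags. A D3 value of 10 tags is the lowest height called in that library. The intervals do not account for the choice of these regions by their ratio.

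The lowest ratios were mostly at narrow D3 regions like the tallest lost ones, with 4 of the 5 between 372 and 375 bp wide. An intronic region of Csda (chr6:131327397-131327768) had 215 tags in D3 (7.11 CPM) and 8 in D6T- (0.374 CPM), a log2 ratio of −4.25 (−5.48 to −3.24). An intronic region of Auts2 (chr5:131995442-131995816) had 199 and 8 tags (−4.14, −5.37 to −3.13). For both regions the 8 tags are the lowest height called in D6T-, and these intervals do not account for the choice by ratio either. A region near Pou4f1 (chr14:104736014-104736386) had 170 and 9 tags (−3.74, −4.89 to −2.78). The 4930525F21Rik region (244 and 20 tags, −3.11) and a wider region of 710 bp, 368 kb from the TSS of Arid1b (329 and 30 tags, −2.96), followed. All 5 hold a CATTCCATT or TCAGCCTCC match, and none was called in D0, D9T-, D12S+, D16S+ or iPSCs. All 5 were however called in D6 siH3.3 (42, 13, 17, 29 and 10 tags in the order above), and those of Csda, Pou4f1 and 4930525F21Rik also in D6 siNT (16, 11 and 32 tags).

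Another set of decreases lay over the exons of the transduced genes. Over Klf4, the tallest region had 471 tags in D3 (15.6 CPM) and 101 in D6T- (4.72 CPM), against 25 tags at D0 (0.788 CPM). Over Sox2, 375 tags (12.4 CPM) fell to 104 (4.86 CPM), with 14 tags at D0 (0.441 CPM). Over Myc, 253 tags (8.37 CPM) in D3 stood against 79 (3.69 CPM) in D6T- and 23 (0.725 CPM) at D0. Pou5f1, which encodes Oct4, had 747 tags (24.7 CPM) in D3, 416 (19.4 CPM) in D6T- and 416 (13.1 CPM) at D0, where the GFP construct lies at this gene. All 4 were thus lower in D6T- than in D3, against the general shift. Vector cDNA and genomic exons cannot be told apart in these reads.

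Gained and lost regions differed in where they lay. A promoter held 8.91% (8.68 to 9.15) of the gained regions and 15.7% (15.3 to 16.1) of the lost, beside 19.1% of the common regions. Between genes lay 45.8% (45.3 to 46.2) of the gained regions but 27.5% (27.0 to 28.0) of the lost. The median distance to the TSS of a protein-coding gene was 29.0 kb for gained, 13.9 kb for common and 10.2 kb for lost regions. The highest point fell in an exon in 20.6% of lost regions, 12.0% of common and 4.01% of gained. For common regions the highest point was that in D6T-, as for gained regions, whereas for lost regions it was that in D3. With the 20000 highest regions of each library, the same order remained for promoters, 12.4% of the gained against 21.5% of the lost, and for exons, 7.13% against 16.3%.

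Their base composition differed to the same extent. The median GC content within 100 bp of the highest point was 45.3% for gained, 51.2% for common and 56.2% for lost regions. The upper quartile of the gained regions (49.8%) thus stayed below the lower quartile of the lost ones (52.2%). A ratio of observed to expected CpG of at least 0.6, a mark of CpG islands, was met by 3.29% of gained, 6.14% of lost and 19.7% of common regions, so the lost regions were rich in GC but mostly not CpG islands. With the 20000 highest regions of each library the medians were 47.8% for gained and 53.2% for lost. The part of base composition in the division into gained and lost regions was not tested.

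Sequence motifs were searched within 100 bp of the highest point on both strands. This point was taken in D6T- for gained and common regions and in D3 for lost ones. Shares of common and lost regions thus differ in library as well as in class. The AP-1 motif TGANTCA was found in 20080 gained regions, 35.7% (35.3 to 36.1), and in 2105 lost regions, 7.16% (6.87 to 7.46). It was found in 33.1% of common regions and in 44.0% (43.3 to 44.6) of those at least 2-fold higher, against 12 of the 248 at least 2-fold lower (4.84%, 2.79 to 8.27). Common regions with the motif had a median log2 ratio of 0.90 (0.89 to 0.91) beside 0.76 for all, not compared at like GC content. AP-1 matches were thus frequent among the common, higher and gained regions, and less frequent among those of D3 alone. Among gained regions of at least 1 CPM the share was 49.2%, and among those under 0.5 CPM it was 26.9%.

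The difference in AP-1 matches held at like base composition. In 5 bins of all classed regions by GC content, 42.4% of gained and 16.1% of lost regions had the motif at the lowest GC, 37.9% and 15.8% in the second bin, 32.3% and 10.9% in the third, 23.8% and 7.23% in the fourth, and 11.0% and 3.76% at the highest GC. Common regions had higher shares than gained ones in the first 4 bins (52.1%, 47.8%, 40.7% and 30.4%). With the 20000 highest regions of each library, 52.9% of the gained and 27.2% of the lost regions had a match.

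**Figure D3:**
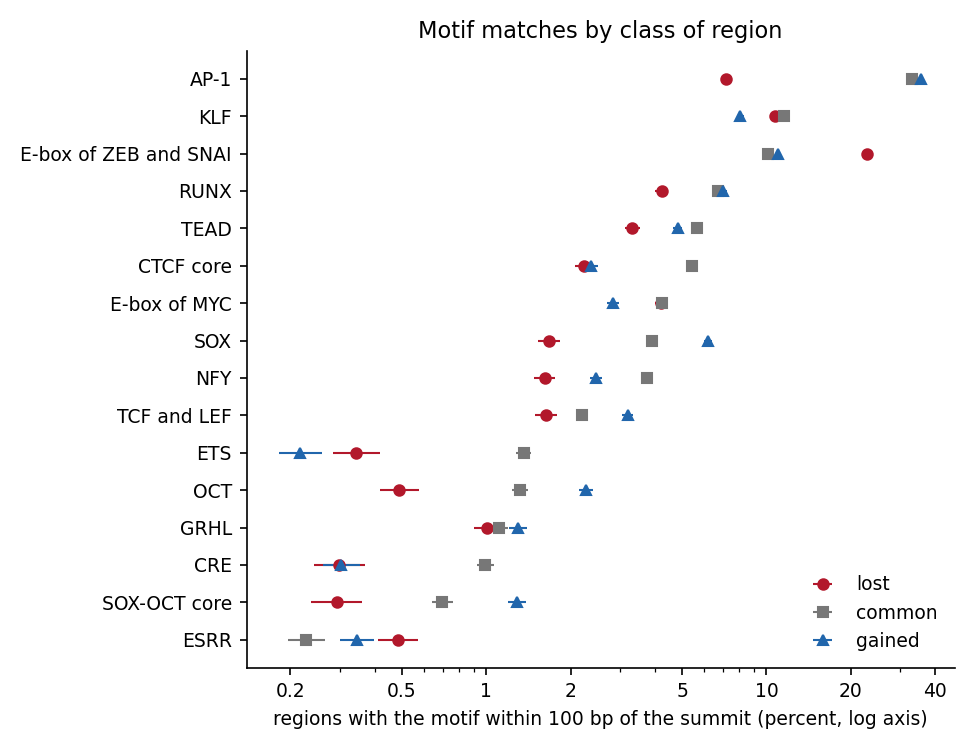
Percent of lost, common and gained regions (log axis, with 95% Wilson intervals) that have an exact match of the named motif within 100 bp of the highest point. Gained regions exceed lost ones for AP-1 (35.7% against 7.16%), SOX, OCT and the SOX-OCT core, and lost regions exceed the others for the E-box of ZEB and SNAI (22.8%).

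Motifs of the reprogramming factors followed. The SOX motif CATTGTT was found in 6.20% (6.00 to 6.40) of gained, 3.89% of common and 1.67% (1.53 to 1.83) of lost regions. In the first 3 GC bins, gained and common regions had near equal shares (9.39% and 9.21%, 6.13% and 6.22%, 4.03% and 4.04%). Lost regions had a lower share than gained ones in every bin (6.08% at the lowest GC and 0.743% against 1.01% at the highest). The octamer ATGCAAAT, bound by Oct4, was found in 2.27% (2.15 to 2.40) of gained, 1.32% of common and 0.489% (0.416 to 0.576) of lost regions, and the core of the composite SOX-OCT element, TTGTNATGC, in 1.29%, 0.697% and 0.292%. At the lowest GC, however, the octamer was about as frequent in lost as in gained regions (3.39% and 3.36%), and the difference appeared in the bins of higher GC (1.62% of gained and 0.728% of lost regions in the third). Common regions with the SOX motif had a median log2 ratio of 0.96 (0.94 to 0.99) and those with the octamer 0.94 (0.90 to 0.98), both above the 0.76 of all. Both matches were most frequent at low GC, however, and all common regions of lowest GC had a median of 0.91 (0.90 to 0.92). The part of base composition in these ratios was not tested. Over D3, the SOX regions were also above the median in D6 siNT (0.06 against −0.46) and in D6 siH3.3 (0.11 against −0.38). The KLF motif GGGNGTGG was less frequent in gained (8.06%) than in lost (10.8%) regions, but within each of the 5 GC bins it was more frequent in the gained (3.80% against 2.26% at the lowest GC and 17.7% against 14.2% at the highest).

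Among the motifs of fibroblast factors, TEAD sites (ACATTCC) were found in 4.81% of gained, 5.66% of common and 3.31% of lost regions, and RUNX sites (TGTGGTT) in 6.99%, 6.71% and 4.22%. At low GC the order of lost and gained was turned, in the first 3 bins for TEAD and the first 2 for RUNX, with TEAD in 8.91% of lost and 5.42% of gained regions and RUNX in 10.5% and 7.97% at the lowest GC. Common regions with a TEAD match had a median log2 ratio of 0.69 (0.66 to 0.70), below that of all. The E-box CAGGTG, bound by the mesenchymal repressors of the ZEB and SNAI families, was found in 22.8% (22.4 to 23.3) of lost regions, 11.0% of gained and 10.2% of common. It was equally frequent in lost and gained regions in the second GC bin (10.5% each) and more frequent in lost ones at the highest GC (29.0% against 22.6%). Outside exons its share was 21.0% in lost regions. With the 20000 highest regions of each library the order was turned, 8.28% of lost against 10.6% of gained.

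**Figure D4:**
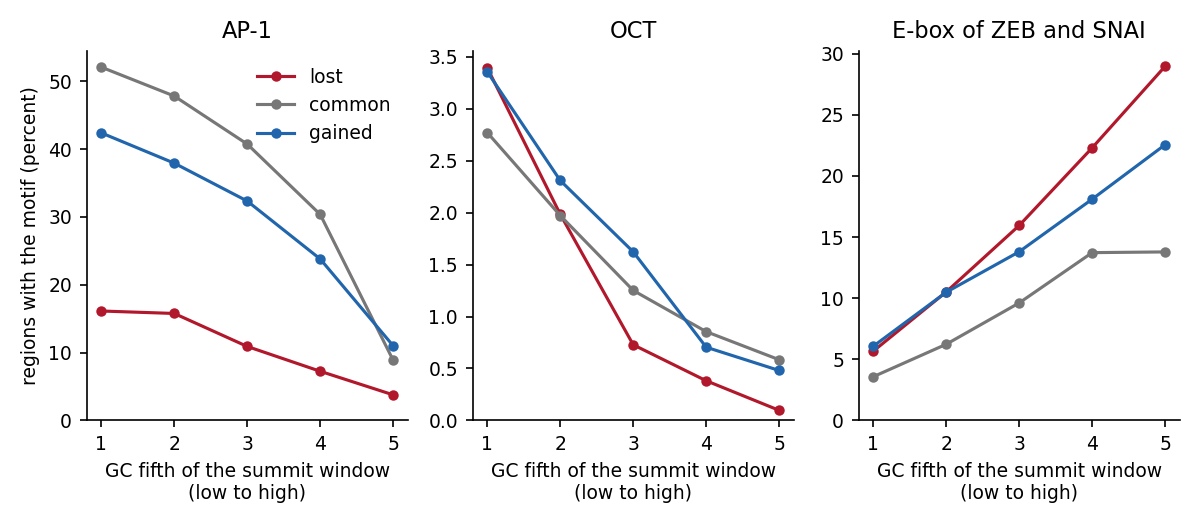
Percent of lost, common and gained regions with a motif (y axes, which differ between panels and start at 0) in 5 bins of GC content of the window, from low to high (x axis). For AP-1 the gained regions lie above the lost ones in every bin (42.4% against 16.1% at the lowest GC), whereas for OCT (3.36% and 3.39%) and the E-box of ZEB and SNAI the lines meet at low GC.

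Matches of CTCF, ETS, CRE and NFY were most frequent in the common regions. The CTCF core AGNNGGCGC was found in 5.41% of common but 2.37% of gained and 2.24% of lost regions, whereas in the 3 bins of lowest GC it was more frequent in gained than in common regions (0.869% and 0.375% at the lowest GC). The ETS motif CCGGAAGT was found in 1.36% of common, 0.217% of gained and 0.343% of lost regions. CRE (TGACGTCA) was found in 0.993% of common regions and 0.304% and 0.299% of gained and lost ones, and NFY (CCAATCA) in 3.74%, 2.46% and 1.61%. For the MYC E-box CACGTG the shares were 4.24% of common, 2.82% of gained and 4.22% of lost regions. GRHL (AACCNGTT), ESRR (TCAAGGTCA) and TCF and LEF (ATCAAAG) were found in 1.30%, 0.346% and 3.20% of gained and in 1.01%, 0.483% and 1.64% of lost regions.

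The other libraries give an independent view of the gained and lost regions, since they took no part in the classes. Of the gained regions, 16.1% (15.8 to 16.4) were called in at least 1 of the day 6 siRNA libraries, against 1.95% (1.80 to 2.11) of the lost regions and 57.1% of the common ones. For gained regions of at least 1 CPM the share was 52.1%, and for those under 0.5 CPM 5.22%. D9T-, the next Thy-1-negative sample, held 7.29% of gained and 0.578% of lost regions. At D0, by contrast, the shares were near each other, 12.9% (12.6 to 13.2) of gained and 14.0% (13.6 to 14.4) of lost regions, and most regions of either class were not called at D0. In iPSCs more lost (13.2%) than gained (9.43%) regions were called, and in D16S+ 8.60% and 8.53%. No call in any of the other 7 libraries had 60.6% of gained and 70.0% of lost regions. Since the D9T- and siRNA libraries had between 35811 and 46211 regions, against 80012 for D0, these shares are not comparable between libraries. They also depend on height, which differs between the classes. In bins of CPM, each taken in the region's own library, fewer gained than lost regions were called at D0 in the 2 lower bins. The shares were 8.85% against 12.6% under 0.5 CPM and 13.1% against 19.1% between 0.5 and 1 CPM. At 1 CPM or more they were near each other, 17.6% of gained and 17.5% of the 211 lost regions.

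**Figure D5:**
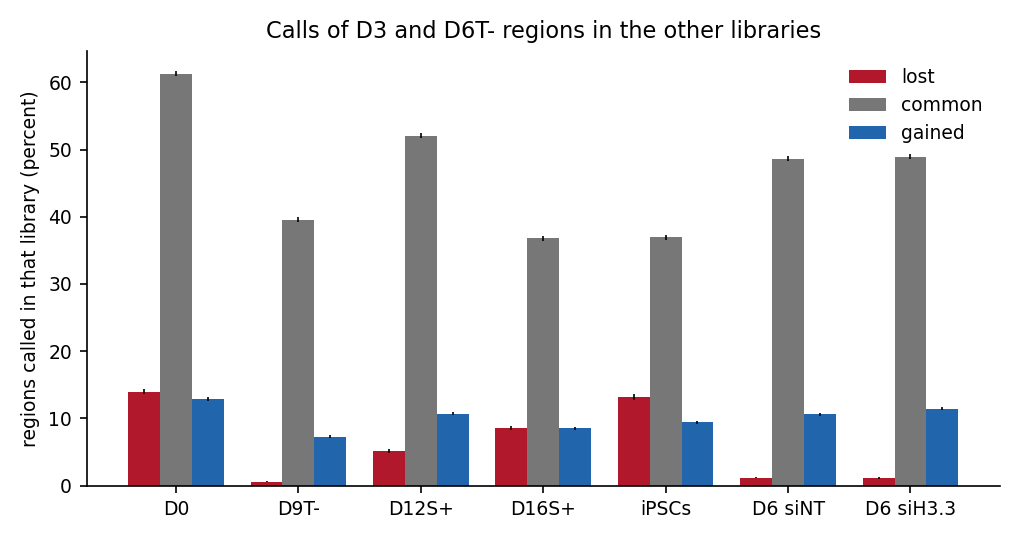
Percent of lost, common and gained regions (y axis, with 95% Wilson intervals) that overlap a region of each of the other 7 libraries (x axis). Gained regions exceed lost ones in D9T- (7.29% against 0.578%) and in both day 6 siRNA libraries, while at D0 both classes lie between 12.9% and 14.0%.

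The 248 common regions at least 2-fold lower differed from the lost ones in this view. They were called in D12S+ (77.8%, 72.2 to 82.5) and D16S+ (77.4%, 71.8 to 82.2) more often than common regions in general (52.0% and 36.8%). Heights were not matched, and calls elsewhere rise with height. Among lost regions of at least 1 CPM, 34.6% were called in D12S+ and 52.1% in D16S+, against 3.64% and 6.43% of those under 0.5 CPM. Of the 22752 regions at least 2-fold higher, 73.3% were called in at least 1 siRNA library, against 57.1% of all common regions, and 52.7% were called in D9T-, against 39.5%. These shares were not matched for height either. Common regions called in D0 but not in iPSCs had a median log2 ratio of 0.78 (0.77 to 0.78), and those called in iPSCs but not in D0 had 0.71 (0.70 to 0.73).

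Among 21281 protein-coding genes, 46.3% had a gained region and 36.0% a lost region in the genebody or the 3 kb before its start. Promoter regions were called in both libraries for 13995 genes, of which 21.4% were at least 2-fold higher in D6T- and 0.157% at least 2-fold lower, with a median log2 ratio of 0.72. A promoter region was called only in D6T- for 730 genes and only in D3 for 656, and these genes enter neither share. The lists of genes described next are read against these values.

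In the fibroblast and mesenchymal lists, no promoter called in both libraries was at least 2-fold lower in D6T-. With 0.157% of all promoters lower, lists of this size would hardly hold one, so this does not set them apart. Promoters called only in D3 have no ratio. In the fibroblast and matrix list, 14 of 20 genes had a gained region and 11 a lost region, with 41 gained against 55 lost regions in all. The promoter of Thy1 was called only in D3, and 18 promoters were called in both libraries, of which 4 were at least 2-fold higher and none lower (median log2 ratio 0.70). The lost regions were concentrated in a few genes: Col5a1, a chain of fibrillar collagen, had 18 lost and 2 gained regions, Pdgfrb, the receptor of PDGF-BB, 12 and 0, and Col1a1 8 and 1. Cd44, the hyaluronan receptor, had 1 lost and 8 gained regions and Fbn1, which encodes fibrillin, 2 and 6. The Cd44 promoter had 69 tags in D3 and 93 in D6T- (2.28 and 4.35 CPM, log2 ratio 0.93, 0.46 to 1.40), and that of Pdgfrb 30 and 20 tags (0.992 and 0.935 CPM, −0.09, −0.98 to 0.78).

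Of 18 mesenchymal transcription factor genes, 10 had a gained and 9 a lost region, with 46 gained against 19 lost regions in all. Runx2, a factor of the osteoblast lineage, had 11 gained and 1 lost, Prrx1 8 and 0, Runx1 7 and 2 and Zeb1 7 and 1. Of 16 promoters called in both libraries, 6 were at least 2-fold higher and none lower. The Prrx1 promoter, at 20 tags in D3 and 38 in D6T- (0.662 and 1.78 CPM), had the highest log2 ratio of the list (1.43, 0.61 to 2.28). Twist1, a mesenchymal basic helix-loop-helix factor, had 55 and 42 tags (1.82 and 1.96 CPM, 0.11, −0.51 to 0.72), below the median of all promoters. Prrx2 stood apart with 7 lost and 1 gained regions and a promoter region of 17 tags called only in D3.

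The lists of TGF-beta signalling and of TEAD and YAP had more gained than lost regions, as did all protein-coding genes together (30112 gained and 21954 lost). In the TGF-beta list, 12 of 15 genes had a gained region and 12 a lost one, with 62 gained and 24 lost regions. Smad3, a receptor-activated transducer, had 14 gained and 4 lost, Ltbp1, which binds latent TGF-beta, 11 and 2, and the receptor gene Tgfbr2 7 and 3. The TEAD and YAP list had 44 gained and 16 lost regions over 11 genes, led by Tead1 with 16 and 2 and followed by the coactivator genes Wwtr1 (8 and 1) and Yap1 (8 and 0). The median span was 67.2 kb for the TGF-beta list and 22.1 kb for the TEAD and YAP list, against 18.6 kb over all genes. The median promoter log2 ratio was 0.77 for TGF-beta and 0.67 for TEAD and YAP. Of the 10 AP-1 subunit genes, 9 had a promoter region in both libraries (median log2 ratio 0.68). Fosl1 was the highest, with 31 and 52 tags (1.03 and 2.43 CPM, 1.25, 0.58 to 1.94), and Fos had 50 and 74 (1.65 and 3.46 CPM, 1.06, 0.53 to 1.61).

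Actin and contractile genes were mixed. Over 11 genes, 28 regions were gained and 36 lost, and 10 genes had a lost region. Myh9, non-muscle myosin heavy chain, had 13 lost and 5 gained, and Tpm1, a tropomyosin, 1 and 9. Of 11 promoters in both libraries, 5 were at least 2-fold higher and 1 was at least 2-fold lower. The lower one was that of Myl9, a myosin light chain gene chosen after its value was seen. It had 36 and 12 tags (1.19 and 0.561 CPM, log2 ratio −1.09, no interval computed). The 12 tags lay near the lowest height called in D6T- (8 tags).

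Promoters of pluripotency genes were called in part. Of 31 genes matched, 15 had a promoter region in both libraries, 4 only in D6T-, 3 only in D3 and 9 in neither. Nanog, a core pluripotency factor, had no region from 3 kb upstream of its TSS to its TTS in either library, whereas its promoter was called in D12S+ (0.852 CPM), D16S+ (1.32 CPM) and iPSCs (0.602 CPM). Sall4, a zinc finger factor of pluripotent cells, had 4 gained and 0 lost regions, and its promoter had 16 tags in D6T- (0.748 CPM) and none in D0 or D3. It was called in D9T- (0.757 CPM), D12S+ (1.65 CPM), D16S+ (2.03 CPM) and iPSCs (1.09 CPM), but in neither siRNA library. Esrrb, a nuclear receptor gene, had 2 gained and 8 lost regions and a promoter of 15 and 14 tags (0.496 and 0.654 CPM, log2 ratio 0.40, −0.76 to 1.55). Tbx3, a T-box factor gene, had 0 gained and 3 lost regions (135 and 176 tags at the promoter, 0.88, 0.55 to 1.22), and Gtsf1 had 3 gained, 1 lost and a promoter of 12 tags called in D6T- but not in D3. The Gtsf1 promoter was already called at D0 (15 tags, 0.473 CPM) and in no other library. The promoters called only in D3 were those of Fgf4, Foxd3 and Lin28a. Fbxo15, chosen after its value was seen, had the highest promoter ratio of the list, with 10 tags in D3 and 34 in D6T- (0.331 and 1.59 CPM, log2 ratio 2.26) and no region at D0. Klf5 had 99 and 149 tags (3.27 and 6.97 CPM, 1.09, 0.71 to 1.47). The 1 promoter at least 2-fold lower was that of Klf4, whose region overlaps its transduced exons.

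Epithelial genes had calls in both directions. Of 28 genes, 16 had a gained and 17 a lost region. Promoters were called in both libraries for 17, only in D6T- for 5 and only in D3 for 4. Krt8, a keratin of simple epithelia chosen after its value was seen, had no promoter region at D0, 22 tags in D3 and 62 in D6T- (0.728 and 2.90 CPM, log2 ratio 1.99). Grhl2, an epithelial transcription factor, had 4 gained regions, 1 lost region and a promoter of 18 tags called in D6T- but not in D3. Cdh1, which encodes E-cadherin, had 2 gained and 2 lost regions, and its promoter had 14 tags in D3 (0.463 CPM) and none in D6T-. Its promoter was called in iPSCs at 1.17 CPM. At 14 to 18 tags these promoters lay close to the lowest called height, of 10 tags in D3 and 8 in D6T-.

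Promoters of DNA replication genes were close to the median of all promoters. Of 26 DNA replication genes all had a promoter region in both libraries, with 7 at least 2-fold higher, none lower and a median log2 ratio of 0.78. Gins2, a subunit of the replicative helicase complex, had 176 and 242 tags (5.82 and 11.3 CPM, 0.96, 0.67 to 1.25). Of the 9 senescence and cell-cycle inhibitor genes, no promoter was at least 2-fold changed (median 0.57). Cdkn2a, a locus of cell-cycle inhibitors, had 65 and 74 tags (2.15 and 3.46 CPM, 0.69, 0.19 to 1.19). Terf1 and Terf2, which encode telomere-binding proteins, had promoter log2 ratios of 0.71 (0.31 to 1.10) and 0.65 (0.10 to 1.20), and that of Adcy7, an adenylate cyclase, was 0.69 (0.18 to 1.20), with 12 lost and 3 gained regions over the gene.

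Markers of other cell types were looked at in the same way. Promoters were called in both libraries for 2 of 7 haematopoietic, 6 of 8 endothelial, 3 of 8 keratinocyte, 7 of 7 neural and 2 of 6 muscle genes. The defining haematopoietic genes Ptprc and Itgb2 had no promoter region in either library. Keratinocyte genes had 14 lost and 8 gained regions, with promoters called only in D3 for 4 of 8, among them Krt17 (15 tags) and Krt14 (14 tags). At least 2-fold higher were 1 haematopoietic, 3 endothelial, 2 keratinocyte, 3 neural and 0 muscle promoters.

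The largest excess of gained regions was found in long gene models. Fgfr2, whose model spans 3012 kb in this annotation and covers other genes, had 113 gained and 55 lost regions. Auts2 had 52 and 6, Macrod2 47 and 0, Arfip1 50 and 6 and Pde4d, a cAMP phosphodiesterase, 47 and 5. The largest excess of lost regions was in Gm20388, a model of 4438 kb (121 gained and 507 lost), followed by Gm2792 (1 and 89), Rbfox3, a neuronal splicing factor (2 and 77), and C130026I21Rik (10 and 71). By chromosome, the lost share of D3 regions ranged from 16.6% (chromosome 3) to 36.7% (chromosome 17) and the gained share of D6T- regions from 37.8% (chromosome 7) to 48.7% (chromosome 14). The median log2 ratio of common regions varied less, between 0.72 and 0.81.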

How the data were processed

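ATAC-Seq was measured in 9 libraries, 1 per condition, and D3 and D6T- were compared. The authors mapped reads of 51 bp with STAR to mm9, removed duplicates with Picard and ran MACS2 (2.1.0.20151222) with neither a control library nor a local background, with tags extended to 200 bp and a q-value cutoff of 0.05. The deposited peak files hold the highest pileup (a signal in tags), the fold enrichment (a ratio over the MACS2 background) and the −log10 q-value of each summit, per the file headers. From these, peaks on chromosomes 1 to 19 were merged within a library, classed by an overlap of at least 1 bp, and the highest pileup was divided by the total tags of the file header in units of 1e+06 (CPM). Tags of D3 and D6T- numbered 30233396 and 21390800. Promoters were taken as the 3 kb before a TSS. Motifs were searched as exact matches within 100 bp of the highest point. In the shares by class, this point was that in D6T- for gained and common regions and that in D3 for lost ones. Shares have 95% Wilson intervals and ratios of tags exact conditional binomial intervals, which cover counting error only. No paired analysis and no test was possible because each condition had 1 library.

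Named regions were the 5 gained and 5 lost of highest CPM and the 5 common of highest and of lowest log2 ratio among those of at least 2 CPM in either library. Named genes were the 5 with the largest excess of gained and of lost regions, up to 5 per list by gained plus lost regions and then by promoter ratio, Thy1, and the genes whose accessibility the study describes. Some items that this rule names are not reported here. Members and lists were chosen with earlier results of these data known. Of 220 listed genes 215 were matched, some through older symbols in RefSeq, and 137 shorter genes of a shared symbol were left out. Alternatives changed the number of regions, the floor, the overlap, the quantity compared, the promoter and the motif window. The scripts (python 3.11.15, numpy 2.4.6, pandas 2.3.3, scipy 1.17.1, matplotlib 3.10.9, pysam 0.24.0) were tested on simulated data, where 13 of 13 checks recovered the planted answer.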

Additional observations from a re-analysis of the deposited data

How the results depend on the processing

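Of 72 recomputed values of the main results, 33 stayed within 1.5 times a count or within the interval of a share or median, and 39 moved beyond it. Counts and shares cannot change sign. The median log2 ratio stayed above 0 in every setting except centring, which sets it to 0. With equal numbers of regions of highest pileup, 37505 regions were gained, the median log2 ratio of common regions was 0.80, 34.2% were at least 2-fold higher and 0.236% lower, and 8.25% of gained regions lay in promoters. With the 20000 highest, 4416 regions were gained, 4239 lost and 15557 common, the median was 0.82, with 29.4% higher and 0.167% lower, and promoters held 12.4% of gained and 21.5% of lost regions. A −log10 q-value of at least 5 left 9969 lost regions (14.5% in promoters), with a median of 0.77, 31.1% higher and 0.248% lower. A common floor gave 0.75 and 31.2% higher. An overlap of 50% gave promoter shares of 9.28% and 16.2%, and midpoints within 500 bp gave 9.30% and 17.4%. Fold enrichment in place of pileup gave a median of 0.61, 21.9% higher and 0.420% lower. A pseudocount of 1 tag gave 0.75, 30.5% and 0.288%. Centring on the median sets it to 0 and left 3.51% higher and 3.64% lower. Pairs of summits within 150 bp gave 0.76 and 32.3%. Narrower promoters, from 1 kb before to 100 bp after the TSS, held 4.03% of gained and 8.26% of lost regions, and promoters of protein-coding genes alone 7.04% and 13.2%. The smaller sets at the 20000 highest and at higher significance follow from fewer regions taken. With 104965 regions from each library this holds for gained and common regions only. All D3 regions were kept there against fewer D6T- regions, and lost regions rose from 29418 to 34665. For the other settings the cause was not tested. No paired analysis was possible because each condition had 1 library. The motif shares at other numbers of regions were added after seeing the data. Depth limits calls below 10 tags in D3 and 8 tags in D6T-.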
